A study of Mus musculus with 12 samples.

Results

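The genes of cholesterol synthesis and of fatty acid synthesis were followed through 3 populations of mouse CD8 T cells. The set holds 30 genes chosen by name, with earlier results of these data known. It takes in 17 of the sterol branch, 9 of the fatty acid branch and 4 that encode or hold back the transcription factors of both. A gene counted as measured where the array has a probe set naming that gene alone, and where several did, the brightest on average across the 12 arrays gave its value. On that rule 29 of the 30 were measured among 18193 genes, 16 of them in the sterol branch. Acat2, a thiolase at the entry to the sterol branch, has no expression value here and enters only the promoter search.

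The study took CD8 T cells from C57bl/c mice aged 6 to 8 weeks and read their RNA on 12 Affymetrix arrays. Naive cells came from spleen (n = 5). The other cells were tumour-infiltrating lymphocytes (TIL) of mice injected in the flank with B16F10-GP, a line of the B16 skin melanoma, and were sorted between days 17 and 19. One TIL group was PD-1+, Tim-3- and 2B4- (n = 3), which the labels call stem-like, and the other PD-1+, Tim-3+ and 2B4+ (n = 4), which they call exhausted. They are named Tim-3- and Tim-3+ cells here. The labels give no treatment for any group. Naive cells differ from both TIL groups in tissue, tumour and tumour digestion as well as in cell state, and these cannot be told apart. The labels do not say whether arrays of 1 group came from separate animals or pools, so p-values measure the spread between these samples, which may be technical.

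Cholesterol is built from acetyl-CoA through mevalonate, farnesyl diphosphate, squalene and lanosterol, and each step has its own enzyme. Fatty acids share the starting material and are then lengthened and desaturated by elongases and desaturases. Both branches answer to the SREBP transcription factors, which leave the endoplasmic reticulum when sterols are scarce and are held there by the INSIG proteins when sterols are plentiful. SREBP-2 acts mainly on sterol genes and SREBP-1c mainly on fatty acid genes. When sterols accumulate, the nuclear receptor LXR turns on exporters such as ABCA1 and ABCG1. T cells that leave rest and divide are known to need new membrane and to raise SREBP activity.

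SREBP binds beside the factors NF-Y and Sp1 at many sterol promoters, so promoter windows from the RefSeq table (GRCm38.p6, from 250 bases before to 50 after the listed start) were searched on both strands, with overlapping matches counted. The table held windows for 23 of the 30 genes. It held none for Fdps, Fdft1, Sqle, Stard4, Scd1, Scd2 and Fads1. The NF-Y box CCAAT lay in the windows of 12 of 13 sterol genes, 3 of 6 fatty acid genes and all 4 regulators, against 41.1% of 27025 genes. More than 1 box was present in 8 of the 13 sterol genes, against 13.3% of genes. The Sp1 box GGGCGG lay in 12 of 13 sterol genes, 2 of 6 fatty acid genes and all 4 regulators, against 38.2% of genes. The sterol regulatory element, searched as TCACNCCAC, lay in Hmgcs1 alone of the 23, against 1.44% of genes. The E-box CACGTG lay in 3 of 13 sterol genes, 1 of 6 fatty acid genes and 1 of 4 regulators, against 8.09% of genes. These matches describe letters in a window and are not shown to be bound in these cells.

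The stretch upstream of the start is printed for 5 genes, so that it lies outside the transcript. Hmgcs1 is shown as the gene with the sterol regulatory element. Idi1, Cyp51 and Insig1 are shown as genes that rose in both TIL groups, and Fasn as the fatty acid gene against which they can be read. Capitals mark CCAAT or its reverse complement ATTGG and, in Hmgcs1, the sterol regulatory element TCACCCCAC. Each reads 5′ to 3′ on the gene's strand, which is plus for Hmgcs1 (chr13:119690101-119690350), Idi1 (chr13:8885356-8885605) and Insig1 (chr5:28071162-28071411) and minus for Cyp51 (chr5:4104698-4104947) and Fasn (chr11:120824548-120824797).
Hmgcs1: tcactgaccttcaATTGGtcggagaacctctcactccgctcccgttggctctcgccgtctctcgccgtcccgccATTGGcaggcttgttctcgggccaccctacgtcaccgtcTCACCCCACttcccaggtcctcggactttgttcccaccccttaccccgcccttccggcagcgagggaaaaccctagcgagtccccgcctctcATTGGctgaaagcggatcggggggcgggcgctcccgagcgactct
Idi1: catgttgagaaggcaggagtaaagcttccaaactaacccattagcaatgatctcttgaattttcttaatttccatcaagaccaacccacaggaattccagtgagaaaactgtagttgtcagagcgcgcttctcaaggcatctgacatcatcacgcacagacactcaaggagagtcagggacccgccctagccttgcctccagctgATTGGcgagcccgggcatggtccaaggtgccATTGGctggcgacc
Cyp51: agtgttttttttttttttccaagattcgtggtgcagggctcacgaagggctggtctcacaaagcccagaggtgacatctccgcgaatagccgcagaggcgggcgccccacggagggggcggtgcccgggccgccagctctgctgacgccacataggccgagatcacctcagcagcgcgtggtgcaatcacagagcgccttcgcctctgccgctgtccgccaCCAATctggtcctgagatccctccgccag
Insig1: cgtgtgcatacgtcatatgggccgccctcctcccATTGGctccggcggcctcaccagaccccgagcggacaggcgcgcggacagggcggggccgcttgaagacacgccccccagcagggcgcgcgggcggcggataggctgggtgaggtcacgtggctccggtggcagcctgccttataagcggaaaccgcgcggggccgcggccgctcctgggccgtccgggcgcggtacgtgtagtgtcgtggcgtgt
Fasn: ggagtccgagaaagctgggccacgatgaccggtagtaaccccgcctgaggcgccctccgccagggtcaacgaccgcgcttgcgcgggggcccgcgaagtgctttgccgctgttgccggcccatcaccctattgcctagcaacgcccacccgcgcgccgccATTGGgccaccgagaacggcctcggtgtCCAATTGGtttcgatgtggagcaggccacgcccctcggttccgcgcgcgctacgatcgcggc
Hmgcs1 carries 3 boxes here and the element between the middle and the last of them, Idi1 carries 2, Cyp51 and Insig1 1 each, and Fasn 3, of which 2 overlap. Fasn thus holds as many boxes as Hmgcs1 in this stretch.

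All levels below are log2 intensities, given as mean ± SD over arrays, and changes are log2 differences ± SE from 1 limma fit of the 3 groups. A change of 1 is a doubling. A gene is said to rise or fall where the Benjamini-Hochberg adjusted p over all 18193 genes was below 0.05. Deviations from the group means split the arrays of every group into 2 sets that no label names: set A, which takes in replicates 1 and 2 of naive and of Tim-3+ cells with replicate 1 of Tim-3- cells, and set B, the other 7 arrays. CD8 T cell markers averaged between 11.96 and 12.32 on every array. Mitosis genes rose in 19 of 19 cases in each comparison, with array means of 5.56 to 5.80 in naive, 8.30 to 9.00 in Tim-3- and 9.74 to 10.29 in Tim-3+ cells. Of 9 melanoma markers, 6 rose and 1 fell in Tim-3+ against naive cells, 2 rose and 1 fell in Tim-3- against naive cells, and 0 passed limma's test between the TIL groups, where 2 were higher at an unadjusted p below 0.05. Their array means ran from 5.02 to 5.15 in naive, 5.40 to 6.10 in Tim-3- and 5.26 to 7.03 in Tim-3+ cells, and 7, 5 and 2 of the 9 markers had group means below 5.71, the level of percentile 40 of genes. Macrophage, dendritic cell and B cell markers averaged at most 5.02, 5.48 and 4.95 on TIL arrays. From the Tim-3- to the Tim-3+ group 1 of 11 macrophage markers rose and 1 fell, while 1 of 6 dendritic and 1 of 5 B cell markers fell. B cell markers were brighter on naive arrays, averaging 5.59 to 6.08. Compared with naive arrays, 3 of the 5 fell for the Tim-3- group and 2 for the Tim-3+ group. Whether B cell RNA in the spleen samples adds to other falls against naive was not tested. The 3 natural killer (NK) cell markers averaged 3.09 to 4.02 on naive, 4.49 to 4.89 on Tim-3- and 5.09 to 5.33 on Tim-3+ arrays, with Klre1 rising in every comparison and Ncr1, which encodes an activating receptor of NK cells, and Klra8 below 5.71 in every group. For control transcripts, 3' signal exceeded 5' signal, a reading of RNA quality, by 0.22, 0.23 and 0.13 in naive, Tim-3- and Tim-3+ arrays.

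Between the TIL groups the sterol branch was higher in Tim-3+ cells and the fatty acid branch was not. Of 16 sterol genes, 8 rose in Tim-3+ against Tim-3- cells, from 0.63 ± 0.17 for Pmvk to 1.58 ± 0.17 for Fdps, and none fell. Across all genes 7.77% rose and 5.77% fell. None of the 9 fatty acid genes passed limma's test in either direction, with 1 higher and 2 lower at an unadjusted p below 0.05. Of the 4 regulators, 1 rose. The median change was 0.62 over the sterol genes, -0.16 over the fatty acid genes and 0.01 over all genes. The arrays of the 2 TIL groups did not overlap, with Tim-3+ higher, for 11 of 16 sterol genes and 1 of 9 fatty acid genes, against 13.1% of all genes. They did not overlap in the other direction for no sterol gene and 1 fatty acid gene, against 9.57% of all genes. Within sets A and B the sterol median was 0.67 and 0.64, and the fatty acid median -0.21 and 0.09. With the array sets as a covariate in the limma fit 13 of 16 sterol genes rose, while the count over all 18193 genes went from 1413 to 1964. Hmgcs1, Idi1, Cyp51, Hsd17b7 and Dhcr7 were added (adjusted p = 0.00406, 0.0182, 0.00514, 0.0212 and 0.00395). Elovl6 fell (adjusted p = 0.00968). The sets were drawn from the deviations of these same arrays, so the adjusted p of that fit may be too small. The set of genes called rested in part on Tim-3- replicate 2: without it 5 of the 29 measured members rose, namely Fdps, Lss, Stard4, Sc5d and Fdft1. Over all 18193 genes the count also went down in that fit, from 1413 to 907. Those 5 rose in each of the 12 fits that left out 1 array.

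Averaged over its genes and set against the naive mean, the sterol branch stood at 0.18, 0.33 and 0.43 on the Tim-3- arrays and at 0.94, 0.79, 1.02 and 1.02 on the Tim-3+ arrays. Naive arrays spread from -0.11 to 0.17. The Tim-3+ arrays stood clear of the others, while the lowest Tim-3- mean, 0.182, lay just above the highest naive mean, 0.174. By the branch median in place of the mean, Tim-3- replicate 1, at 0.0884, fell within the naive range. The fatty acid branch stood at 0.15, -0.01 and 0.08 on the Tim-3- arrays and at 0.05, -0.23, 0.00 and -0.05 on the Tim-3+ arrays, within or beside the naive range of -0.12 to 0.15. Its groups overlapped. Melanoma marker means were 5.54, 5.40 and 6.10 on the Tim-3- arrays and 7.03, 5.26, 6.43 and 5.93 on the Tim-3+ arrays, in replicate order, and overlapped. Mitosis means were 9.00, 8.30 and 8.92 on the Tim-3- arrays and 10.29, 9.85, 9.74 and 9.99 on the Tim-3+ arrays, and stepped upward without overlap in the order naive, Tim-3-, Tim-3+. NK cell marker means stepped in the same order through Klre1, with Ncr1 below 5.71 throughout. The part of melanoma RNA and of cell division in the sterol difference was not tested. In sorted bulk cells, fewer cells that use a gene and less RNA of it per cell cannot be told apart.

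**Figure D1:**
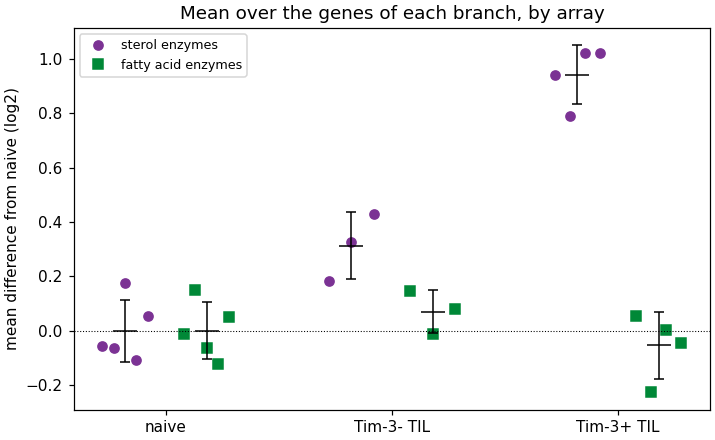
Mean log2 difference from the naive mean over the 16 sterol genes (circles) and 9 fatty acid genes (squares), 1 point an array, for 5 naive, 3 Tim-3- and 4 Tim-3+ arrays; black bars are group means ± SD. The sterol means run from 0.18 to 0.43 in Tim-3- and from 0.79 to 1.02 in Tim-3+ cells, and the fatty acid means of the groups overlap.

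Against naive cells the sterol branch moved in both directions in Tim-3- cells and in 1 direction in Tim-3+ cells. In Tim-3- cells 7 of 16 sterol genes rose and 4 fell, where 16.1% of all genes rose and 18.3% fell. In Tim-3+ cells 13 rose and none fell by limma's test, with 1 lower at an unadjusted p below 0.05, where 20.1% of all genes rose and 21.4% fell. The sterol median was 0.33 for Tim-3- cells and 1.00 for Tim-3+ cells, against -0.06 and -0.07 over all genes. The Tim-3- median was 0.37 within set B and -0.01 within set A, which holds 1 Tim-3- array, while the Tim-3+ median was 0.96 and 1.04 within sets A and B. Of the fatty acid genes, 1 rose and none fell in Tim-3- cells, with the same counts at an unadjusted p below 0.05, and 1 rose and 2 fell in Tim-3+ cells. Both comparisons use the same 5 naive arrays. The same 7 sterol genes, Pmvk, Idi1, Fdft1, Sqle, Cyp51, Hsd17b7 and Stard4, rose in both TIL groups. Of them 4, Pmvk, Fdft1, Sqle and Stard4, also rose from Tim-3- to Tim-3+ cells. The share of all genes with these joint calls was not computed, so neither count is read as a trait of the branch. All members called in a comparison kept their sign in both array sets. They numbered 9 between the TIL groups, and 15 (Tim-3-) and 17 (Tim-3+) against naive. Those members were chosen on the same 12 arrays that make up the sets. A kept sign was therefore likely beforehand and is no independent check.

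**Figure D2:**
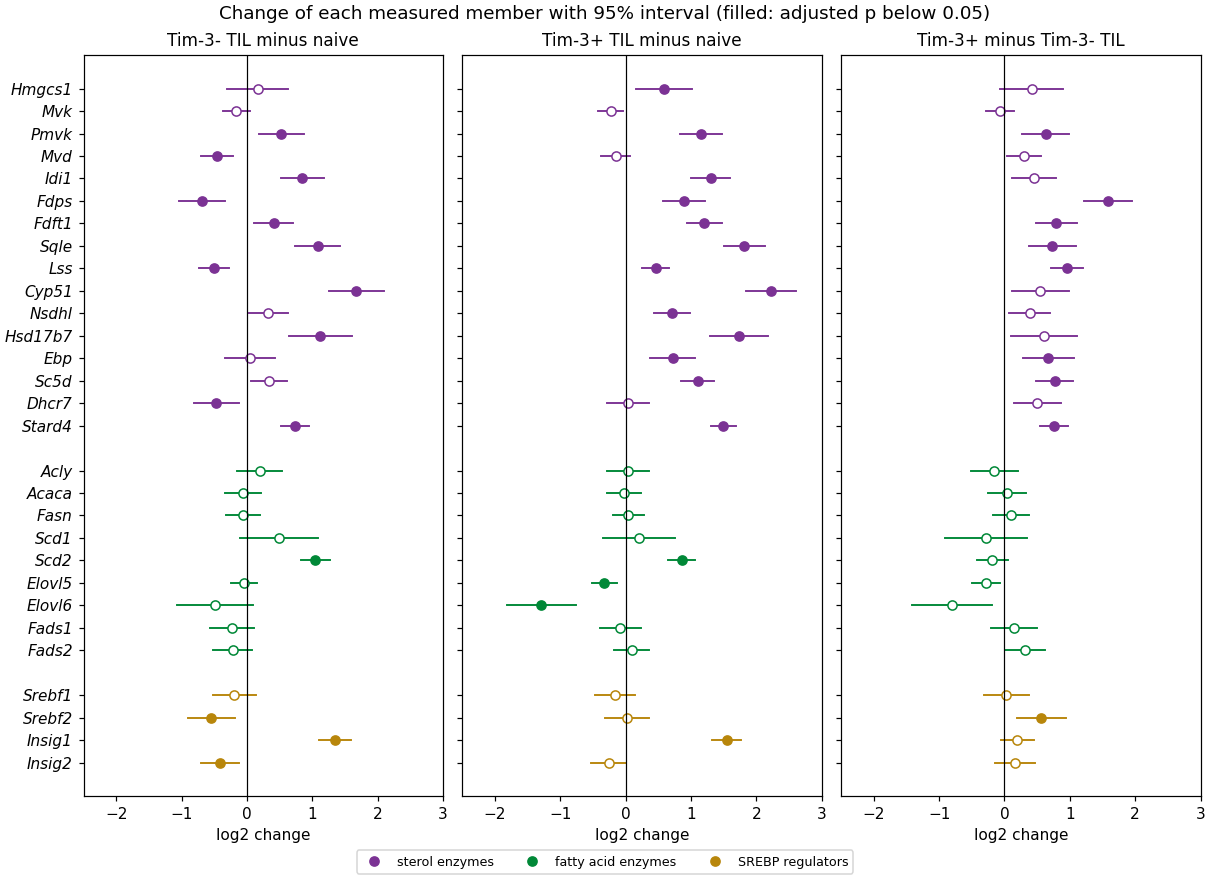
Log2 change with its 95% interval for the 29 measured genes (rows) in the 3 comparisons (panels), with filled circles for an adjusted p below 0.05; purple marks sterol, green fatty acid and gold regulator genes. In the right panel 8 sterol genes are filled and all lie above 0, while no fatty acid gene is filled.

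The first steps, from acetyl-CoA to the 5-carbon isoprenoid units, moved unevenly. Hmgcs1, which makes HMG-CoA, stood at 11.50 ± 0.25 in naive, 11.67 ± 0.35 in the Tim-3- group and 12.08 ± 0.43 in the Tim-3+ group, and rose in Tim-3+ against naive cells by 0.58 ± 0.20 (adjusted p = 0.0297). That call did not hold in 5 of 12 fits without 1 array (naive replicate 1, 2 or 4, or Tim-3+ replicate 3 or 4), with adjusted p up to 0.107. Between the TIL groups Hmgcs1 differed by 0.41 ± 0.23 (adjusted p = 0.299). Of the gene's 4 other probe sets, 1 passed for that difference, at 0.80 (adjusted p = 0.0246 over the probe sets tested), and the other 3 gave 0.27 to 0.68 and did not pass. Mvk, which phosphorylates mevalonate, passed in no comparison, at -0.068 ± 0.10 between the TIL groups, -0.16 ± 0.097 in the Tim-3- group and -0.23 ± 0.089 in Tim-3+ against naive cells. It was the only sterol gene with no call.

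Pmvk, the next kinase, lay at log2 8.41, 8.70, 8.98, 8.83 and 8.96 on the naive arrays, 9.18, 9.22 and 9.50 on those of Tim-3- cells and 9.78, 9.63, 10.09 and 10.22 on those of Tim-3+ cells. The 3 groups did not overlap and stepped upward from naive to Tim-3- to Tim-3+ cells. Its changes were 0.52 ± 0.16 in Tim-3- against naive (adjusted p = 0.0207), 0.63 ± 0.17 from Tim-3- to Tim-3+ (adjusted p = 0.0219) and 1.15 ± 0.15 in Tim-3+ against naive cells (adjusted p = 1.8e-05). The first did not hold without Tim-3- replicate 3 (adjusted p = 0.109), and the second without Tim-3- replicate 1 or 2 or Tim-3+ replicate 3 or 4 (adjusted p up to 0.087). Mvd, which removes a carboxyl group to give isopentenyl diphosphate, fell in Tim-3- against naive cells by 0.45 ± 0.11 (adjusted p = 0.00644) and differed by 0.30 ± 0.12 between the TIL groups (adjusted p = 0.132). Idi1, which converts isopentenyl diphosphate to its reactive isomer, rose against naive cells by 0.85 ± 0.15 in Tim-3- (adjusted p = 0.00053) and 1.30 ± 0.14 in the Tim-3+ group (adjusted p = 3.24e-06). Its difference between the TIL groups was 0.45 ± 0.16 (adjusted p = 0.0835), and 0.66 by its second probe set (adjusted p = 0.0202 over the probe sets tested).

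At the step to farnesyl diphosphate, Fdps had the largest difference between the TIL groups among the members by the probe set used. Fdps, farnesyl diphosphate synthase, lay at log2 7.61, 7.32, 7.68, 7.16 and 7.20 on the naive arrays, 6.77, 6.51 and 6.83 on those of Tim-3- cells and 8.63, 8.40, 7.98 and 8.13 on those of Tim-3+ cells. All Tim-3- arrays were below all naive arrays, and all Tim-3+ arrays above them. Fdps fell in Tim-3- against naive cells by 0.69 ± 0.16 (adjusted p = 0.00437), rose in Tim-3+ against naive cells by 0.89 ± 0.15 (adjusted p = 0.000245), and was 2.99-fold above the Tim-3- level in Tim-3+ cells (a log2 change of 1.58 ± 0.17, adjusted p = 2.71e-05). Within sets A and B the TIL difference was 1.74 and 1.39. A second, dim probe set of Fdps, with group means below 5.71, gave 0.031 (adjusted p = 0.942 over the probe sets tested), and the mean of both gave 0.81, less than Lss. Lss, which closes squalene epoxide into lanosterol, followed the same order at log2 8.99, 9.01, 9.31, 9.01 and 9.23 on the naive arrays, 8.59, 8.67 and 8.57 on those of Tim-3- cells and 9.51, 9.41, 9.68 and 9.65 on those of Tim-3+ cells. The naive arrays again lay between the TIL groups without overlap. Lss fell in Tim-3- cells by 0.50 ± 0.11 (adjusted p = 0.00215), rose in Tim-3+ cells by 0.46 ± 0.098 (adjusted p = 0.00168) and was 1.94-fold above the Tim-3- level in Tim-3+ cells (a log2 change of 0.96 ± 0.11, adjusted p = 5.37e-05). All 3 probe sets of Lss were above the Tim-3- level in Tim-3+ cells, by 0.92 to 0.96, but the dimmest one was lower in Tim-3+ than in naive cells, by -0.47 (adjusted p = 0.0151 over the probe sets tested), and with the mean of all 3 the rise against naive in Tim-3+ cells did not pass (0.13, adjusted p = 0.19).

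The 2 enzymes between Fdps and Lss in the pathway stepped upward instead. Fdft1, squalene synthase, lay at log2 8.16, 8.35, 8.65, 8.43 and 8.50 on the naive arrays, 8.81, 8.64 and 9.04 on those of Tim-3- cells and 9.48, 9.43, 9.84 and 9.74 on those of Tim-3+ cells. Tim-3+ arrays were above all others, and 1 Tim-3- array, at 8.64, lay just below the highest naive array, at 8.65. Fdft1 rose by 0.79 ± 0.14 from Tim-3- to Tim-3+ cells (adjusted p = 0.00197) and by 1.20 ± 0.13 in Tim-3+ against naive cells (adjusted p = 2.57e-06). Its rise of 0.41 ± 0.14 in Tim-3- against naive cells (adjusted p = 0.0319) did not hold without naive replicate 1 or 2 or Tim-3- replicate 1 or 3 (adjusted p up to 0.168) or with the mean of its probe sets (0.11, adjusted p = 0.312). Sqle, squalene epoxidase, an oxygen-dependent step at which the pathway is held in check, lay at log2 7.03, 7.11, 7.70, 6.81 and 7.21 on the naive arrays, 8.31, 8.10 and 8.37 on those of Tim-3- cells and 9.11, 8.89, 8.96 and 9.00 on those of Tim-3+ cells. No 2 groups overlapped. Sqle was 2.12-fold above the naive level in Tim-3- cells (a log2 change of 1.09 ± 0.16, adjusted p = 0.000102) and 3.53-fold above the naive level in Tim-3+ cells (a log2 change of 1.82 ± 0.15, adjusted p = 1.78e-07). The step of 0.73 ± 0.17 between the TIL groups (adjusted p = 0.00927) did not hold without Tim-3- replicate 2 (adjusted p = 0.0518).

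**Figure D3:**
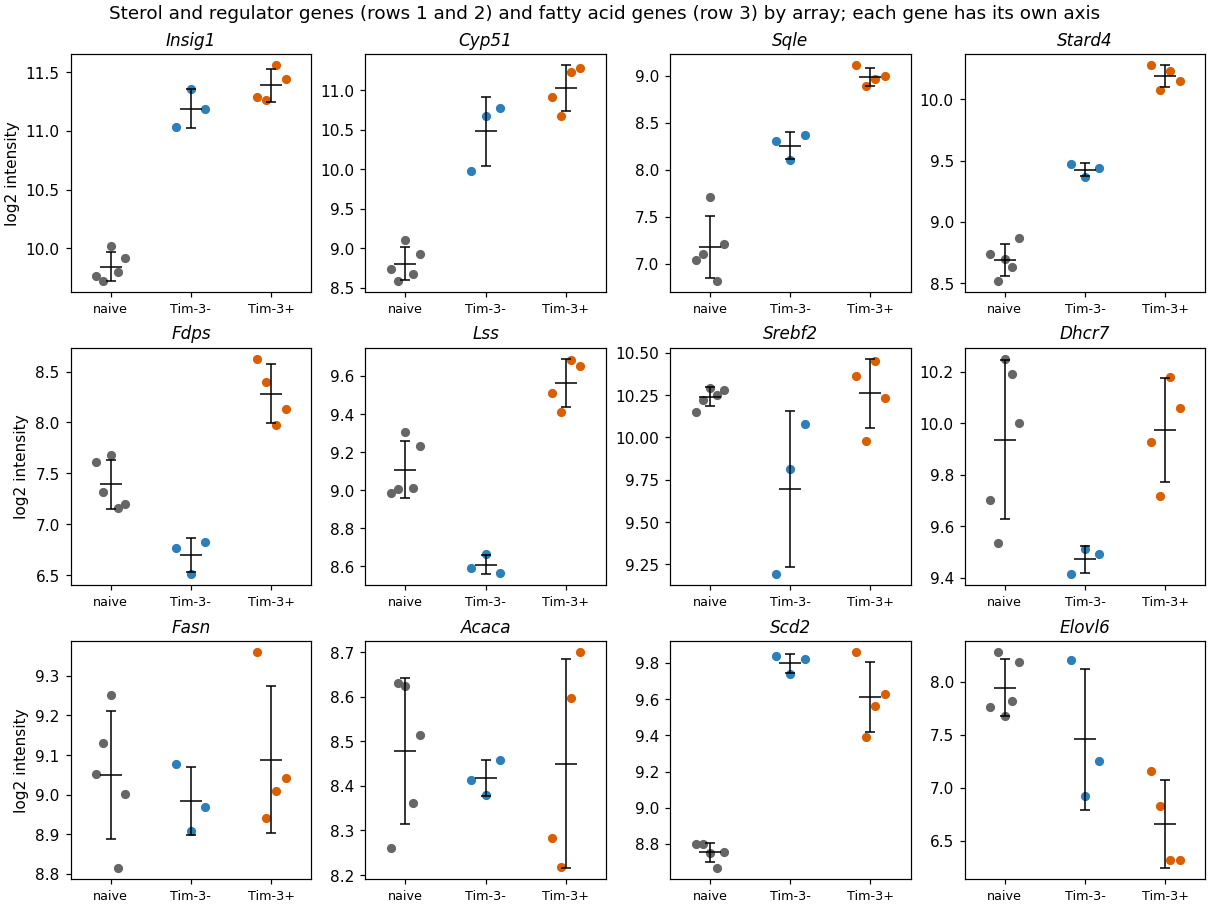
Log2 intensity of 12 members, 1 point an array, in 5 naive, 3 Tim-3- and 4 Tim-3+ arrays, with group mean ± SD in black and an axis of its own for each gene. Insig1 and Cyp51 are high in both TIL groups, Fdps and Lss are lowest in Tim-3- cells, and Fasn and Acaca overlap across groups.

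After lanosterol come demethylation and reduction, and Cyp51 had the largest rise of the members against naive cells in both TIL groups. Cyp51, the lanosterol 14-demethylase, lay at log2 8.74, 8.58, 9.10, 8.67 and 8.93 on the naive arrays, 9.98, 10.68 and 10.78 on those of Tim-3- cells and 10.91, 10.67, 11.23 and 11.28 on those of Tim-3+ cells. All TIL arrays were above all naive arrays, and Tim-3- replicate 1 was the lowest of them. Cyp51 was 3.2-fold above the naive level in Tim-3- cells (a log2 change of 1.68 ± 0.19, adjusted p = 1.09e-05) and 4.67-fold above the naive level in Tim-3+ cells (a log2 change of 2.22 ± 0.18, adjusted p = 1.59e-07). The difference between the TIL groups, 0.55 ± 0.20, did not pass (adjusted p = 0.101), with a 95% interval of 0.11 to 0.98. Hsd17b7, a reductase of the demethylation complex, rose by 1.13 ± 0.22 (adjusted p = 0.00121) and 1.73 ± 0.20 (adjusted p = 8.64e-06) against naive cells and differed by 0.61 ± 0.23 between the TIL groups (adjusted p = 0.115). Of its other probe sets, 2 gave 0.73 and 1.03 for that difference, both past the threshold over the probe sets tested, and the dimmest gave -0.027 (adjusted p = 0.955). Nsdhl, the decarboxylase of that complex, rose in Tim-3+ against naive cells by 0.71 ± 0.13 (adjusted p = 0.000404). Its difference from naive in Tim-3- cells was 0.32 ± 0.14 (adjusted p = 0.0907).

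The last steps move and reduce double bonds. Ebp, the sterol isomerase, lay at log2 8.50, 8.63, 8.35, 7.83 and 8.06 on the naive arrays, 8.24, 8.37 and 8.36 on those of Tim-3- cells and 9.31, 9.08, 8.85 and 8.73 on those of Tim-3+ cells. Tim-3- arrays fell within the naive range, and Tim-3+ arrays stood above both. Ebp rose by 0.67 ± 0.18 between the TIL groups (adjusted p = 0.0253) and by 0.72 ± 0.16 in Tim-3+ against naive cells (adjusted p = 0.0023). The TIL call did not hold when any 1 of the 3 Tim-3- arrays, or Tim-3+ replicate 1 or 2, was left out (adjusted p up to 0.0739), and the change was 0.96 in set A against 0.43 in set B.

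Sc5d, a sterol desaturase, lay at log2 8.23, 8.27, 8.14, 7.89 and 7.75 on the naive arrays, 8.21, 8.52 and 8.44 on those of Tim-3- cells and 9.07, 9.18, 9.24 and 9.15 on those of Tim-3+ cells. Tim-3+ arrays were above all others, and Tim-3- arrays overlapped the naive ones. Sc5d rose by 0.77 ± 0.13 between the TIL groups (adjusted p = 0.00152) and by 1.10 ± 0.12 in Tim-3+ against naive cells (adjusted p = 3.07e-06). Its 2 dimmer probe sets disagreed with this against naive cells: they gave -0.75 and -1.19 in Tim-3- and -0.27 and -1.01 in Tim-3+ cells, and for the TIL difference they gave 0.48 and 0.18, neither past the threshold (adjusted p = 0.141 and 0.552 over the probe sets tested). Dhcr7, the reductase that finishes cholesterol, stood at 9.94 ± 0.31 in naive, 9.47 ± 0.051 in the Tim-3- group and 9.97 ± 0.20 in the Tim-3+ group. It fell in Tim-3- against naive cells by 0.47 ± 0.16 (adjusted p = 0.0379), which did not hold when any 1 Tim-3- array, or naive replicate 3, 4 or 5, was left out (adjusted p up to 0.098). The TIL difference of 0.50 ± 0.17 did not pass (adjusted p = 0.0688).

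Stard4 makes no sterol but carries cholesterol between membranes inside the cell. It lay at log2 8.74, 8.52, 8.70, 8.63 and 8.87 on the naive arrays, 9.47, 9.37 and 9.44 on those of Tim-3- cells and 10.28, 10.08, 10.23 and 10.15 on those of Tim-3+ cells. No 2 groups overlapped, and the spread within each was small. Stard4 was 1.67-fold above the naive level in Tim-3- cells (a log2 change of 0.74 ± 0.098, adjusted p = 4.16e-05) and 2.82-fold above the naive level in Tim-3+ cells (a log2 change of 1.49 ± 0.09, adjusted p = 7.63e-09). Between the TIL groups it rose by 0.76 ± 0.10 (adjusted p = 0.000194), with 0.71 in set A against 0.78 in set B. Its 3 probe sets gave 0.74 to 0.76 for that difference.

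The regulators did not move as one. Insig1, itself a target of SREBP, lay at log2 9.76, 9.72, 10.02, 9.80 and 9.92 on the naive arrays, 11.03, 11.36 and 11.19 on those of Tim-3- cells and 11.29, 11.26, 11.56 and 11.44 on those of Tim-3+ cells. All TIL arrays were above all naive arrays, and the TIL groups overlapped. Insig1 was 2.54-fold above the naive level in Tim-3- cells (a log2 change of 1.35 ± 0.11, adjusted p = 4.82e-07) and 2.92-fold above the naive level in Tim-3+ cells (a log2 change of 1.55 ± 0.10, adjusted p = 2.41e-08), and differed by 0.20 ± 0.12 between the TIL groups (adjusted p = 0.352). Insig2, its relative, lay at log2 8.08, 8.17, 8.29, 8.22 and 8.19 on the naive arrays, 7.65, 7.75 and 7.92 on those of Tim-3- cells and 7.70, 8.15, 8.22 and 7.66 on those of Tim-3+ cells. Tim-3- arrays were below all naive arrays, and Tim-3+ arrays overlapped both. Insig2 fell in Tim-3- against naive cells by 0.42 ± 0.14 (adjusted p = 0.0288), which did not hold without Tim-3- replicate 1 or 2 or naive replicate 3 or 4 (adjusted p up to 0.101). The difference between the TIL groups was 0.16 ± 0.14 (adjusted p = 0.584), while its other 2 probe sets gave 0.60 and 0.71 (adjusted p = 0.0246 and 0.00817 over the probe sets tested).

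Srebf2, which encodes SREBP-2, lay at log2 10.15, 10.22, 10.29, 10.25 and 10.28 on the naive arrays, 9.19, 9.81 and 10.08 on those of Tim-3- cells and 10.36, 9.98, 10.45 and 10.23 on those of Tim-3+ cells. Tim-3- replicate 1 was the lowest array by a wide margin, and Tim-3- replicate 3 overlapped the Tim-3+ range. Srebf2 fell in Tim-3- against naive cells by 0.54 ± 0.17 (adjusted p = 0.0212), which did not hold without Tim-3- replicate 1 (adjusted p = 0.115). It rose by 0.56 ± 0.17 from Tim-3- to Tim-3+ cells (adjusted p = 0.048), but that call did not hold in 10 of 12 fits without 1 array, the exceptions being Tim-3+ replicate 2 and Tim-3- replicate 3 (adjusted p up to 0.174). The change was 0.98 in set A against 0.40 in set B, and 0.16 by its second probe set (adjusted p = 0.743 over the probe sets tested). In Tim-3+ against naive cells it was 0.02 ± 0.15 (adjusted p = 0.935). Srebf1, which encodes both SREBP-1 forms, lay at log2 8.62, 8.81, 8.91, 8.61 and 8.88 on the naive arrays, 8.46, 8.72 and 8.54 on those of Tim-3- cells and 8.29, 8.36, 8.97 and 8.78 on those of Tim-3+ cells. Its groups overlapped, with changes of -0.19 ± 0.15, -0.17 ± 0.14 and 0.026 ± 0.16 in Tim-3- against naive, Tim-3+ against naive and between the TIL groups, none past the threshold.

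The fatty acid branch held 6 of 9 genes with no call in any comparison: Acly, Acaca, Fasn, Scd1, Fads1 and Fads2. The share of all genes with no call was not computed, so this count is not read as a trait of the branch. Acly, which makes cytosolic acetyl-CoA from citrate, differed by 0.20 ± 0.16 in the Tim-3- group and 0.039 ± 0.15 in Tim-3+ against naive cells. A dimmer probe set of Acly, averaging 9.80 over all arrays, was higher in both TIL groups. It gave 0.31 in Tim-3- (adjusted p = 0.038) and 0.34 in Tim-3+ against naive cells (adjusted p = 0.0119), both over the probe sets tested. The rest of the Acly probe sets did not pass. Acaca, acetyl-CoA carboxylase and the committed step, differed by -0.061 ± 0.13 and -0.028 ± 0.12. Fasn, the synthase that assembles palmitate, differed by -0.065 ± 0.12 and 0.038 ± 0.11, with 95% intervals of -0.33 to 0.20 and -0.20 to 0.28. Both intervals exclude a doubling, and so do those of Acaca, -0.34 to 0.22 and -0.28 to 0.23. Between the TIL groups the 3 genes differed by -0.16 ± 0.17, 0.032 ± 0.14 and 0.10 ± 0.13.

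Among the desaturases, Scd2, which puts the first double bond into saturated chains, was the one that rose. It lay at log2 8.80, 8.80, 8.75, 8.67 and 8.75 on the naive arrays, 9.84, 9.74 and 9.82 on those of Tim-3- cells and 9.86, 9.39, 9.56 and 9.63 on those of Tim-3+ cells. All TIL arrays were above all naive arrays, and the TIL groups overlapped. Scd2 was 2.07-fold above the naive level in Tim-3- cells (a log2 change of 1.05 ± 0.10, adjusted p = 2.75e-06) and 1.81-fold above the naive level in Tim-3+ cells (a log2 change of 0.86 ± 0.096, adjusted p = 5.06e-06), and differed by -0.19 ± 0.11 between them (adjusted p = 0.335). Scd1, its paralogue, lay at log2 4.27, 4.58, 3.30, 3.71 and 3.72 on the naive arrays, 4.61, 4.13 and 4.48 on those of Tim-3- cells and 4.22, 3.47, 4.58 and 4.21 on those of Tim-3+ cells. All of these are below 5.71 and may be background. Fads2, which starts the path to polyunsaturated chains, lay at log2 6.69, 6.85, 6.55, 6.13 and 6.49 on the naive arrays, 6.48, 6.26 and 6.23 on those of Tim-3- cells and 6.67, 6.59, 6.69 and 6.59 on those of Tim-3+ cells. The Tim-3+ arrays were above the Tim-3- ones, but the difference of 0.31 ± 0.14 did not pass (adjusted p = 0.203). Fads1, the desaturase after it, differed by 0.15 ± 0.16 between the TIL groups (adjusted p = 0.68), 0.71 in set A against -0.17 in set B. A second, dimmer probe set of Fads1 gave -0.98 (adjusted p = 0.00373 over the probe sets tested), the opposite sign, and -1.16 in Tim-3+ against naive cells (adjusted p = 5.63e-05).

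The 2 elongases measured as members were lower in Tim-3+ than in naive cells. Elovl6, which lengthens palmitate, lay at log2 7.77, 8.28, 7.68, 7.81 and 8.19 on the naive arrays, 8.20, 6.92 and 7.25 on those of Tim-3- cells and 7.16, 6.83, 6.32 and 6.32 on those of Tim-3+ cells. Tim-3- replicate 1 was within the naive range and the other Tim-3- arrays were below it. Elovl6 fell in Tim-3+ against naive cells by 1.29 ± 0.25, a 2.44-fold lower intensity (adjusted p = 0.000693). Between the TIL groups it differed by -0.80 ± 0.28 (adjusted p = 0.082), with -1.21 in set A against -0.77 in set B, where set A holds 1 Tim-3- array. Elovl5, which lengthens polyunsaturated chains, lay at log2 12.36, 12.30, 12.29, 12.35 and 12.32 on the naive arrays, 12.13, 12.41 and 12.30 on those of Tim-3- cells and 11.98, 11.86, 12.13 and 12.02 on those of Tim-3+ cells. It fell in Tim-3+ against naive cells by 0.33 ± 0.087 (adjusted p = 0.00754), and its TIL difference of -0.28 ± 0.099 did not pass (adjusted p = 0.0826) although the TIL arrays did not overlap at full precision.

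Genes around the pathway, listed with earlier results known, were read the same way. Of 6 other measured genes of sterol synthesis, 2 rose and 1 fell between the TIL groups, where 7.77% of all genes rose and 5.77% fell. Msmo1, the C-4 methylsterol oxidase that works with Nsdhl and Hsd17b7, rose by 1.10 ± 0.28 (adjusted p = 0.0191), which did not hold when Tim-3- replicate 1, or Tim-3+ replicate 3 or 4, was left out (adjusted p up to 0.0784), or with the mean of its probe sets (0.45, adjusted p = 0.0762). Erg28, a scaffold of that complex, rose by 0.49 ± 0.14 (adjusted p = 0.0355), which did not hold in 5 of 12 fits without 1 array (Tim-3+ replicate 1, 2 or 3, or Tim-3- replicate 2 or 3). Idi2, a paralogue of Idi1, fell by 2.36 ± 0.42 (adjusted p = 0.00165). It lay at log2 4.93, 4.18, 4.40, 5.23 and 4.85 on the naive arrays, 6.74, 7.70 and 8.37 on those of Tim-3- cells and 4.29, 5.04, 5.49 and 6.16 on those of Tim-3+ cells, so that all Tim-3- arrays stood above all others, and it had risen in Tim-3- against naive cells by 2.89 ± 0.40 (adjusted p = 5.81e-05). Its naive and Tim-3+ means, 4.72 and 5.24, are below 5.71, so both changes may be understated.

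Of 8 genes of sterol sensing and of SREBP handling and turnover, none rose by limma's test between the TIL groups and 2 fell, against 5.77% of all genes that fell. Erlin1, a protein of endoplasmic reticulum lipid rafts that takes part in protein degradation there, peaked in Tim-3- cells, at log2 6.97, 6.82, 6.98, 6.85 and 7.25 on the naive arrays, 8.98, 8.86 and 9.15 on those of Tim-3- cells and 7.61, 7.49, 8.11 and 8.06 on those of Tim-3+ cells. It rose in Tim-3- against naive cells by 2.02 ± 0.15 (adjusted p = 1.92e-07) and fell from Tim-3- to Tim-3+ cells by 1.18 ± 0.16 (adjusted p = 0.000213). Rnf145, a ubiquitin ligase of the endoplasmic reticulum, fell between the TIL groups by 0.61 ± 0.12 (adjusted p = 0.00306). Scap, the escort of SREBP, differed by -0.019 ± 0.16, 0.041 ± 0.16 and 0.022 ± 0.14 between the TIL groups, in Tim-3- and in Tim-3+ against naive cells, none past the threshold. Mbtps2, a protease that frees SREBP, fell in Tim-3- against naive cells by 0.45 ± 0.16 (adjusted p = 0.0392), which did not hold without Tim-3- replicate 2 or 3 or naive replicate 3, 4 or 5 (adjusted p up to 0.217).

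Among genes of LXR and sterol export, the exporters Abca1 and Abcg1 fell in every comparison. Of 6 genes of LXR and efflux, none rose in any comparison by limma's test, also at an unadjusted p below 0.05, and 3 fell between the TIL groups, 5 in Tim-3- and 3 in Tim-3+ against naive cells, where 5.77%, 18.3% and 21.4% of all genes fell. Apoe, which encodes a lipoprotein that takes up exported cholesterol, passed in none, at -0.027, -0.066 and -0.093. Mylip also fell in all 3, and Nr1h3, which encodes LXR alpha, and Lpcat3 fell in Tim-3- cells. Apoe, Nr1h3 and Lpcat3 and, in the lists that follow, Pggt1b and the genes given without values are named after their values were seen. Abca1, which exports cholesterol to lipid-poor apolipoprotein, lay at log2 7.75, 8.33, 8.33, 8.38 and 8.44 on the naive arrays, 4.45, 5.59 and 5.70 on those of Tim-3- cells and 2.88, 2.82, 2.88 and 3.11 on those of Tim-3+ cells. The groups stepped down without overlap, and both TIL means are below 5.71, so the falls against naive of 3.00 ± 0.24 in Tim-3- (adjusted p = 3.26e-07) and 5.32 ± 0.22 in the Tim-3+ group (adjusted p = 1.59e-10) may be understated. Its brightest 2 of 3 probe sets gave -2.33 and -1.93 between the TIL groups, and the dimmest -0.61, which did not pass (adjusted p = 0.137 over the probe sets tested).

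Abcg1, the exporter to larger particles, lay at log2 10.08, 10.26, 9.98, 9.99 and 10.09 on the naive arrays, 8.05, 8.48 and 8.23 on those of Tim-3- cells and 6.82, 7.41, 7.20 and 7.06 on those of Tim-3+ cells. It fell by 1.83 ± 0.14 in Tim-3- against naive cells (adjusted p = 1.7e-07) and by a further 1.13 ± 0.14 to Tim-3+ cells (adjusted p = 0.000115), where it was 7.77-fold lower than in naive cells. Mylip, an LXR target that encodes a ubiquitin ligase, lay at log2 8.55, 8.65, 9.03, 8.84 and 9.04 on the naive arrays, 5.92, 6.96 and 6.52 on those of Tim-3- cells and 4.90, 4.78, 5.26 and 5.01 on those of Tim-3+ cells. It fell by 2.36 ± 0.20 (adjusted p = 5.61e-07) and by a further 1.48 ± 0.21 (adjusted p = 0.000288). Neither gene's groups overlapped. The Tim-3+ mean of Mylip, 4.99, is below 5.71, so its further fall may be understated.

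**Figure D4:**
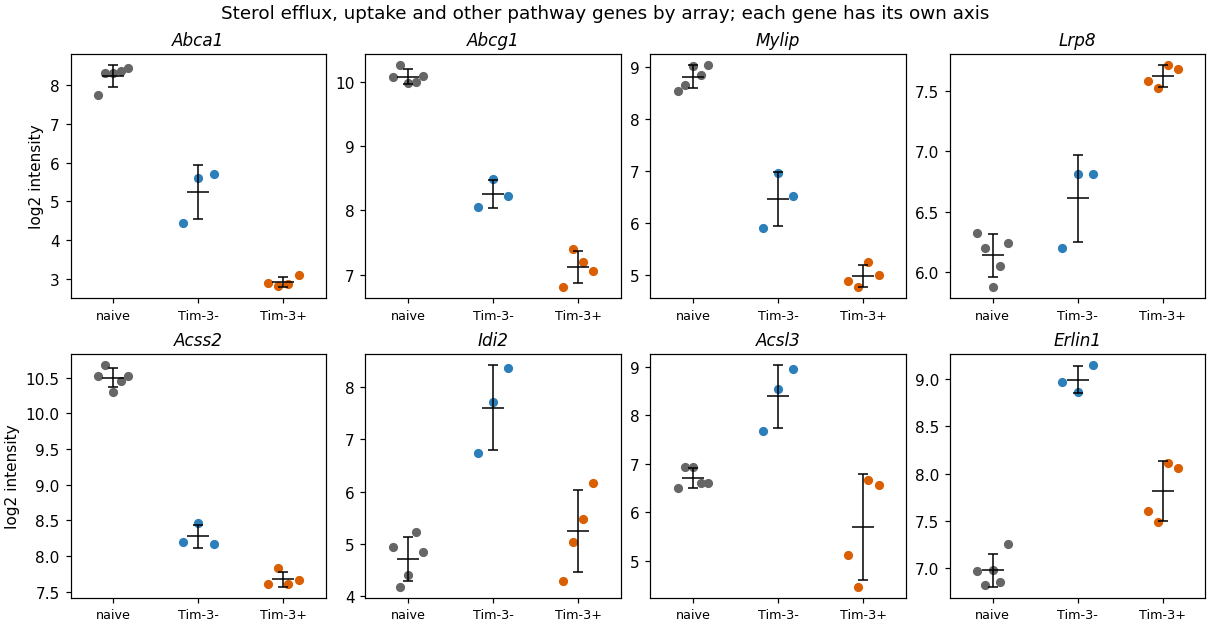
Log2 intensity of 8 genes around the pathway, 1 point an array, in 5 naive, 3 Tim-3- and 4 Tim-3+ arrays, with group mean ± SD in black and an axis of its own for each gene. Abca1, Abcg1, Mylip and Acss2 step down from naive to Tim-3+ cells, Lrp8 is highest in Tim-3+ cells, and Idi2, Acsl3 and Erlin1 are highest in Tim-3- cells.

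Of 10 genes of sterol uptake, transport and esterification, 1 rose between the TIL groups, where 7.77% of all genes rose, and 5 fell in Tim-3+ against naive cells (Scarb1, Npc1, Npc2, Lipa and Osbp), where 21.4% of all genes fell. The one that rose, Lrp8, encodes a receptor for apolipoprotein E and reelin and lay at log2 6.32, 6.20, 5.88, 6.05 and 6.24 on the naive arrays, 6.20, 6.81 and 6.82 on those of Tim-3- cells and 7.58, 7.52, 7.71 and 7.68 on those of Tim-3+ cells. Tim-3+ arrays were above all others, by 1.01 ± 0.15 over Tim-3- (adjusted p = 0.000498) and 1.48 ± 0.14 over naive cells (adjusted p = 6.18e-07). Lipa, the lysosomal lipase that frees cholesterol from its esters, fell against naive cells by 1.45 ± 0.10 in Tim-3- (adjusted p = 1.1e-07) and 1.17 ± 0.096 in the Tim-3+ group (adjusted p = 2.03e-07). Npc2, which carries cholesterol out of the lysosome, fell by 0.65 ± 0.092 (adjusted p = 7.82e-05) and 0.66 ± 0.085 (adjusted p = 1.92e-05). Of 13 isoprenoid genes 1 rose between the TIL groups, a share near the 7.77% of all genes. It was Pggt1b, the beta subunit of the enzyme that geranylgeranylates small GTPases, by 0.61 ± 0.13 (adjusted p = 0.00482). Against naive cells Nus1, a subunit of the enzyme that makes dolichol chains, rose by 0.99 ± 0.11 and 1.15 ± 0.099, while Fntb, the beta subunit of farnesyltransferase, fell by 1.45 ± 0.19 and 1.39 ± 0.17, and Pdss2, which makes the ubiquinone tail, fell by 0.96 ± 0.12 and 0.91 ± 0.11, each in Tim-3- and Tim-3+ cells, with adjusted p of at most 2.91e-05. The 6 probe sets of Nus1 disagreed, and their mean gave 0.090 in Tim-3- (adjusted p = 0.413) and 0.28 in Tim-3+ cells (adjusted p = 0.00558).

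Of 26 other genes of fatty acid synthesis, elongation and desaturation, 5 rose and 1 fell between the TIL groups, where 7.77% of all genes rose and 5.77% fell. Those that rose were Elovl4, Hsd17b12, Hacd2, Mid1ip1 and Mlx. Acss2, which makes acetyl-CoA from acetate, was the one that fell and lay at log2 10.52, 10.68, 10.30, 10.45 and 10.53 on the naive arrays, 8.20, 8.46 and 8.17 on those of Tim-3- cells and 7.60, 7.83, 7.61 and 7.66 on those of Tim-3+ cells. It fell by 2.22 ± 0.11 in Tim-3- against naive cells (adjusted p = 2.74e-09) and by a further 0.60 ± 0.12 to Tim-3+ cells (adjusted p = 0.00289), with no overlap between groups. The elongases went both ways: Elovl4 rose by 1.04 ± 0.23 between the TIL groups (adjusted p = 0.00761; 0.63 and 0.06 by its most variable probe set), and Elovl7 fell against naive cells by 2.80 ± 0.34 in Tim-3- (adjusted p = 1.63e-05) and 3.63 ± 0.31 in the Tim-3+ group (adjusted p = 3.1e-07). Elovl4 had naive and Tim-3- means, 3.93 and 5.30, below 5.71, and Elovl7 had both TIL means below it. Of 4 acyl-CoA synthetases, which activate fatty acids, Acsl4 rose and Acsl3 fell between the TIL groups. Acsl3 lay at log2 6.49, 6.93, 6.94, 6.60 and 6.60 on the naive arrays, 7.67, 8.54 and 8.94 on those of Tim-3- cells and 5.11, 4.47, 6.67 and 6.56 on those of Tim-3+ cells, highest in Tim-3- cells, and fell by 2.68 ± 0.45 to Tim-3+ cells (adjusted p = 0.00109). The Tim-3+ mean of Acsl3, 5.70, lies just below 5.71. Acsl4 rose by 0.58 ± 0.15 (adjusted p = 0.0188) and Acsl5 by 0.42 ± 0.081 in Tim-3+ against naive cells (adjusted p = 0.000679).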

How the data were processed

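Each deposited value is the linear intensity of 1 probe set, and per the labels the authors used RMA and the affy package. Tool versions, how RMA's log values became linear, and which arrays were normalized as one batch are not stated in the labels or headers. The log2 of each value was taken without a floor. Of 45101 probe sets, 34945 name exactly 1 gene in the array annotation used, and 932 name several. The number of arrays limits the precision, and the array medians lay between 58.8 and 63.0. One limma fit (3.58.1, R 4.3.3, default eBayes) of the 3 group means over all 12 arrays gave every contrast, two-sided, with Benjamini-Hochberg adjustment over all genes. The fit was run on simulated data with independent noise for each gene and array. That simulation held no array sets, so it does not show how the fit behaves with them. No filter on dim genes was applied. Members and lists were chosen with earlier results of these data known. Values are printed for every array for the 4 regulators and for the genes with the smallest adjusted p in each branch and comparison: 8 sterol and 4 fatty acid genes between the TIL groups, 3 of each against naive cells. Around the pathway up to 3 genes a list with the smallest adjusted p are named, with Msmo1, Scap, Abca1, Abcg1 and Acss2. Some genes of these lists are not reported here. Same-numbered arrays of different groups had deviations that correlated between -0.15 and 0.41 over 10 pairs, with a median of 0.20. Differently numbered ones gave -0.39 to 0.30 over 37 pairs, with a median of -0.14. Arrays of the same set had a median of 0.22 over 24 pairs. Pairing by number is thus not excluded. The main fit did not take the numbers as pairs, and a fit with them as a block is given below. Python 3.11.15 with numpy 2.4.6, pandas 2.3.3 and matplotlib 3.10.9 did the rest.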

Additional observations from a re-analysis of the deposited data

Results flagged for a closer look

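Fdps and Lss moved in opposite directions against naive cells in the 2 TIL groups, and the difference itself was tested: between Tim-3+ and Tim-3- cells it was 1.58 for Fdps and 0.96 for Lss on the log2 scale, both past the threshold in limma. Of 104 gene and group combinations checked for 1 array far from the rest, 2 had one, where chance gives about 1 in 20. The check took in naive and Tim-3+ arrays only, so no Tim-3- array was screened. Abca1 stood at log2 7.75 in naive replicate 1, with the other naive arrays between 8.33 and 8.44. Nus1 stood at 9.86 in naive replicate 2, with the other naive arrays between 9.53 and 9.62.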

How the results depend on the processing

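The replicate number as a block (replicate block) in the limma fit gave 9 members higher and 0 lower between the TIL groups. It gave 9 and 5 in Tim-3- and 15 and 2 in Tim-3+ against naive cells. Without it the counts were 9 and 0, 9 and 6, and 15 and 2, but the genes were not all the same. Between the TIL groups Srebf2 was lost (adjusted p = 0.0536) and Idi1 gained (adjusted p = 0.0378). In Tim-3- against naive cells Dhcr7 was lost (adjusted p = 0.0549). With the array sets as a covariate 14 members rose between the TIL groups, where 1964 of all 18193 genes rose, against 1413 without it. Leaving out 1 array gave 5 to 10 higher and 0 to 1 lower there. The 5 came without Tim-3- replicate 2, where 907 of all 18193 genes rose. The member called lower between the TIL groups differed between settings. It was Elovl6 with the mean of all probe sets, the sets as a covariate and set B alone. Within set A, which holds 1 Tim-3- array, Elovl6 changed in the same direction, by -1.21. The member called lower was Fads1 with the most variable probe set and Elovl5 with trended and robust moderation. With only the groups compared in the fit, the calls of Srebf2, Msmo1, Erg28 and Acsl4 between the TIL groups did not hold. Within set B the fatty acid median between the TIL groups was 0.0872. Within set A, 3 members fell in Tim-3- against naive cells, the sterol median there was -0.00904, and the fatty acid median of Tim-3+ against naive cells was -0.139. With the mean of all probe sets the sterol median was 0.141 in Tim-3- and 0.715 in Tim-3+ against naive cells, and 4 members fell in Tim-3+ cells, or 6 with the most variable probe set. Signs turned with the most variable probe set for Fads1 between the TIL groups (-0.976), Sc5d against naive (-1.19 in Tim-3-, -1.01 in Tim-3+), Scap against naive (-0.527 and -0.543) and Lss in Tim-3+ against naive (-0.472). They also turned with the mean of all probe sets for Sc5d (-0.53 and -0.058), and within set A for Mbtps2 (0.0994) and Lrp8 (-0.0645) in Tim-3- against naive cells. Each gene's probe sets differ, by construction, in those first alternatives, and the cause of the other shifts was not tested. Dim probe sets near the level of percentile 40 limit Scd1 and the TIL levels of Abca1.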

Other observations

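The following genes of fatty acid elongation and synthesis lie outside the 30 members, are named after their values were seen and moved in both directions. Hacd2, a dehydratase of the cycle, rose by 0.56 ± 0.12 from Tim-3- to Tim-3+ cells (adjusted p = 0.00509) and by 1.04 ± 0.10 in Tim-3+ against naive cells (adjusted p = 1.28e-06). Hsd17b12, its ketoreductase, rose by 0.85 ± 0.22 (adjusted p = 0.0179) and 0.75 ± 0.19 (adjusted p = 0.00553) in the same comparisons. Hacd3, a second dehydratase, rose against naive cells by 0.83 ± 0.11 in Tim-3- (adjusted p = 3.96e-05) and 0.87 ± 0.10 in Tim-3+ cells (adjusted p = 7.3e-06), and differed by 0.041 ± 0.12 between the TIL groups (adjusted p = 0.89). Hacd1, of the same family, fell in Tim-3+ against naive cells by 1.36 ± 0.32 (adjusted p = 0.00312). Its means, 5.26, 4.34 and 3.90 in naive, Tim-3- and Tim-3+ cells, are all below 5.71 and may be background. Hacd4 fell by 0.63 ± 0.20 in Tim-3- (adjusted p = 0.0251) and 0.72 ± 0.18 in Tim-3+ against naive cells (adjusted p = 0.00588), with every group mean below 5.71. Tecr, the last enzyme of the cycle, differed by -0.17 ± 0.11 and -0.089 ± 0.10 against naive cells and 0.079 ± 0.12 between the TIL groups, none past the threshold. Mid1ip1, whose product helps acetyl-CoA carboxylase to polymerize, rose by 0.54 ± 0.14 in Tim-3- against naive (adjusted p = 0.00701) and by 0.69 ± 0.14 from Tim-3- to Tim-3+ cells (adjusted p = 0.00541), while Acaca itself passed in neither comparison.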
